A study of Mus musculus with 36 samples.

Results

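A set of 291 accessible chromatin regions was followed across 18 stimulations of mouse bone marrow-derived dendritic cells. Each of them gained accessibility with Sendai virus and with 3',3'-cGAMP, stood at most 0.5 above the control on the log2 scale with the ligand labelled PAM, and kept most of the gain when PAM was given together with the virus or with cGAMP. They were chosen from 116557 ATAC-seq peaks on chromosomes 1 to 19 by their counts in 6 of the 18 groups. For each library, CPM, the counts scaled to a common library total, were computed over chromosomes 1 to 19 without the largest peak, taken as log2(CPM + 0.5), centred on the library's median peak and averaged over the 2 libraries of a group. A member had to lie at least 1.5 above the unstimulated control in both the virus group and the cGAMP group, and at most 0.5 above it in the PAM group. The groups with PAM added to virus and PAM added to cGAMP each had to lie less than 0.4 below the same stimulus alone. The first condition left 2222 peaks and the limit on PAM alone left 870 of them. Of these, 291 are the members, 218 lay at least 0.4 below in both PAM combinations and are called the blunted peaks here, and 361 did so in 1 combination. All 291 members passed the filter on low counts.

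The cells were grown from the marrow of female C57BL/6J mice aged 6 to 8 weeks in medium with GM-CSF at 15 ng/mL, and all groups share this culture. They were stimulated for 6 h, nuclei of 50000 cells were treated with a transposase that inserts adapters into open DNA, and the fragments were amplified for 12 cycles. The control (Ctrl) had no ligand. The groups with 1 ligand are Z (depleted zymosan), L (LPS), H (a ligand labelled HMW), P (the ligand labelled PAM), cG (3',3'-cGAMP) and S (Sendai virus, labelled SeV). The combinations are PL, PH, LH, PLH, PS, PcG, ScG, PScG, ZS, ZcG and ZScG, named by their letters. Each group has 2 libraries, which no label ties to separate mice or cultures, so the p-values measure the spread between libraries and that spread may be technical.

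Dendritic cells recognise viral RNA in the cytosol through receptors such as RIG-I, and cyclic dinucleotides such as cGAMP through STING. Both routes lead through the kinase TBK1 to the factor IRF3 and to secreted type I interferon, which then acts back on the cells. Interferon signalling acts through a short DNA element, the interferon-stimulated response element, beside genes of antiviral defence. LPS acts through Toll-like receptor 4 and can reach IRF3 through the adaptor TRIF. Zymosan is a preparation of yeast cell wall.

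The upstream sequences of 2 interferon-induced genes are shown because the members stand in different places relative to their start sites. The peak at the start of Oasl1 is the only member that covers a start site listed by RefSeq. At Ifit1 the members overlap the gene, and the nearest is 4041 bp from the start site. Each sequence is the 250 bases before the start site on the gene's strand, from the RefSeq promoter table (GRCm38.p6), at chr5:114922990-114923239 (+) for Oasl1 and chr19:34640639-34640888 (+) for Ifit1. Capitals mark the letters of the interferon-stimulated response element, GAAA repeated after any 2 bases, here read on the opposite strand.
Oasl1: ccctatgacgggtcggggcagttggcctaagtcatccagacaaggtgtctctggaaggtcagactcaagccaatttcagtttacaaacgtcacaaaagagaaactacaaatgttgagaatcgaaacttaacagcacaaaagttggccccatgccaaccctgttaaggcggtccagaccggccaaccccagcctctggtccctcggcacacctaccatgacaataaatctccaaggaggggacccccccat
Ifit1: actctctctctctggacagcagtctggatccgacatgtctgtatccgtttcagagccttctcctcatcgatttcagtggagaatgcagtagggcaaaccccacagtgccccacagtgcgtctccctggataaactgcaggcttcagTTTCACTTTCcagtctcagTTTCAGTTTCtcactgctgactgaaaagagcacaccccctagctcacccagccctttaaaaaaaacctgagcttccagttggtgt

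The Ifit1 window held 2 matches, from base -104 to -95 and from base -85 to -76 before the start site, and the Oasl1 window held 0. These letters, searched on both strands, were in 2.98% of the 31396 listed windows of this length on chromosomes 1 to 19. They were in 34.5% of the 113 windows of the list of interferon-induced genes described below. The letters of NF-kappaB, GGGA and CC with any 4 bases between them, were found once in the Oasl1 window, from base -13 to -4, and in 17.8% of all listed windows. A match of letters is a description and no measurement of binding.

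The libraries held 19097027 to 39977088 counts, of which the mitochondrial genome took 44.1% to 63.1%. That share was 57.3% to 63.1% in every library of Ctrl, Z, ZcG, ScG and ZScG, 51.0% and 58.1% in ZS, and 44.1% to 53.8% in the libraries of the other 12 groups. The difference between PScG and ScG, and those of L and H against Z, cross these levels. So do the rule's own differences of S, cG and P from Ctrl, and ZS against Z does in part. None of these can be told apart from whatever set the levels. The members took 0.0393% to 0.258% of a library's counts on chromosomes 1 to 19. All 15 marker genes of dendritic and myeloid cells had peaks, with a median of 1.74 CPM per kb of gene and flank. Of 5 neutrophil and granulocyte genes 3 had a peak, and the median of the list was 0.124 CPM per kb. S100a8 and Camp had 5.18 and 6.23 CPM per kb at the median library, Mpo had 0.124, and Ly6g and Elane had no peak. Of markers of other cells, 4 of 5 T cell genes, 3 of 5 B cell genes and 1 of 4 erythroid genes had a peak. So did 1 of 3 mast cell, 2 of 3 natural killer cell and 2 of 3 stromal genes. Their list medians, in that order, were 0.382, 0.0249, 0, 0, 0.134 and 0.256 CPM per kb, and the highest gene was Klf1 at 2.98. The part of such cells in the results was not tested.

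The members were mostly away from start sites. Of the 276 members on chromosomes with start sites listed here, 1 covered a start (0.362%), against 9.18% of all peaks on those chromosomes. Of all 291, 14 (4.81%) came within 1 kb of either end of a gene, inside or outside it, against 14.4% of all peaks. Members overlapped a gene body as often as peaks in general, 59.1% against 59.6%. They were wider, with a median of 560 bp against 451 bp, and carried more counts in the 24 libraries that had no part in the choice, with a median mean of 4.07 CPM against 2.74 CPM. The rule needs a rise over a 0.5 CPM offset and so favours peaks with counts. Members stood close together at some genes: 57 of them fell into 23 runs with gaps of at most 50 kb. The longest run had 7 members over Oasl2 and Oasl1, Efcc1 had 4, and Dtd1, Acap2, Cd274 and Ifit1 had 3 each.

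Of 1093 peaks assigned to 113 interferon-induced genes, 33 were members (3.02%), at 23 of these genes, against 0.25% of all peaks. The same list held 11 of the 218 blunted peaks. The 23 genes include Ifit1, Ifit2, Oasl1, Oasl2, Cmpk2, Gbp4, Gbp5, Iigp1, Tgtp2, Trim25, Trim30a, Rnf213 and Sp110, which act against viruses or intracellular microbes, Mx1, whose allele in C57BL/6 mice is known to be defective, and Cd274, Il15, Il27 and Peli1, which act on immune signalling. Of 26 genes of interferon production and signalling, Ifih1, which encodes the RNA sensor MDA5, and Tyk2, a kinase of the interferon receptor, held 3 members among 332 peaks. Of the 605 peaks at 41 inflammatory genes such as Il6, Tnf and Il1b, 0 were members, beside the 0.25% of all peaks. Peaks that PAM raised above the limit could not be members. A median or count over a list describes it and does not set it apart from other genes.

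Across the groups, the members' median level moved in 3 steps. In the groups behind the rule, the median of the centred log2 level was -1.19 in Ctrl, -1.08 in P, 0.96 in S, 0.72 in cG, 1.04 in PS and 0.83 in PcG, and these differences are the rule's own. In the other groups it was lowest in Z at -0.55. It lay between -0.13 and 0.30 in H, L, PH, LH, PL and PLH, in that order from H, with L and PH both at 0.01. It lay between 0.82 and 1.03 in ZS, ZcG, ZScG, ScG and PScG. The medians of the 2 libraries of a group differed by at most 0.15, so the 3 steps lay further apart than replicate libraries while most neighbours within a step did not. The middle step, from H to PLH, was itself about as wide as the gap between Z and H, so the steps are not sharply separate. Z stood above Ctrl, whose libraries the rule required to be low.

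**Figure D1:**
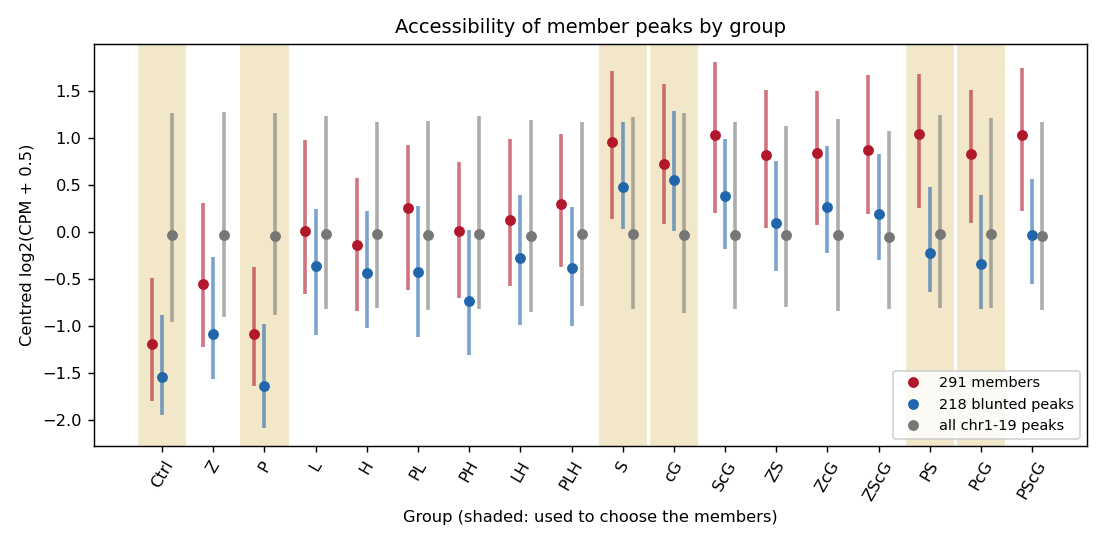
Centred log2(CPM + 0.5) in each of the 18 groups, as the median (point) and the range from the lower to the upper quartile (bar), for the 291 members in red, the 218 blunted peaks in blue and all peaks of chromosomes 1 to 19 in grey. Shading marks the groups used to choose the members, and in the unshaded groups the members' median runs from -0.55 in Z to 1.03 in PScG.

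The first question put to groups outside the rule was whether the members also opened when virus or cGAMP was given with each other or with zymosan. Z replaced the control as the baseline, because the rule had used the control libraries. In edgeR's quasi-likelihood test with Benjamini-Hochberg adjustment over 119464 peaks, 213 of 291 members were higher in ScG than in Z and 0 were lower, where 7.48% of all tested peaks were higher and 8.15% lower (15.6% in either direction). The median fitted log2 difference of the members was 1.62, against 0.01 over all tested peaks. In ZS 196 members were higher than in Z and 0 lower, where 6.63% and 8.53% of all peaks were (15.2% in either direction). In ZcG 187 were higher and 0 lower (4.12% and 4.95% of all, 9.07% together), and in ZScG 220 and 0 (9.09% and 11.5%, 20.5% together). The median log2 differences were 1.47, 1.45 and 1.57. These 4 comparisons share the Z libraries. In all 4, 156 members were called higher, and in none of the 4, 45. The shares of all tested peaks called in all 4 or in none were not counted, so these counts do not set the members apart.

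The members with the highest counts included the start of Oasl1 and peaks at Ifit1 and near Ifih1. The Oasl1 peak (chr5:114922803-114924096, GRCm38) covers the start of a gene whose product limits translation of Irf7. It had 20.6 and 25.2 CPM in the Z libraries, 59.6 and 58.2 CPM in ScG, 48.7 and 47.9 CPM in ZS, 44.4 and 43.7 CPM in ZcG and 50.9 and 48.4 CPM in ZScG. All 8 libraries with virus or cGAMP lay above both Z libraries. The log2 difference between ScG and Z was 1.30 ± 0.12 (SE, n = 2 libraries per group), with an adjusted p of 1.05e-17 in edgeR.

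Ifit1 encodes a protein that binds viral RNA lacking the host's cap modification. Its largest member (chr19:34649632-34654426) lies over Ifit1 and the neighbouring Ifit1bl1. It had 15.0 and 19.4 CPM in Z, against 42.6 and 54.8 CPM in ScG and 45.6 and 35.5 CPM in ZS. The groups did not overlap, and the log2 difference between ScG and Z was 1.43 ± 0.16 (SE). In the rule's own groups this peak had 4.43 and 6.95 CPM in Ctrl, 67.2 and 67.3 CPM in S and 62.2 and 46.8 CPM in PS. The 2 other Ifit1 members had 8.70 and 11.2 CPM, and 9.73 and 13.8 CPM, in ScG, all above their Z libraries.

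The broad peak 3612 bp from Ifih1 (chr2:62587194-62592006) had 16.7 and 21.5 CPM in Z, 36.8 and 36.2 CPM in ScG and 33.4 and 35.7 CPM in ZScG. It rose by a log2 difference of 0.87 ± 0.14 (SE) in ScG, with an adjusted p of 1.9e-07 in edgeR. Peaks at genes outside the lists rose too. A peak in Dnm3, which encodes a dynamin of membrane scission, had 5.81 and 7.86 CPM in Z and 27.2 and 29.5 CPM in ScG, a log2 difference of 1.98 ± 0.20 (SE). A peak in Arhgef28 had 6.57 and 5.53 CPM in Z and 28.9 and 25.7 CPM in ScG.

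Il15 encodes a cytokine that sustains natural killer cells and memory T cells. Its member at chr8:82372729-82373535 had 3.97 and 2.95 CPM in Z and 15.4 and 21.6 CPM in ScG, a log2 difference of 2.37 ± 0.27 (SE). Its other member, at chr8:82376896-82377462, had 3.06 and 4.67 CPM in Z and 10.4 and 10.5 CPM in ScG, a difference of 1.35 ± 0.28 (SE). Both rose in ScG, ZS, ZcG and ZScG. The member 2520 bp from Il27, which encodes a subunit of an interleukin, had 1.07 and 0.491 CPM in Z and 4.69 and 7.87 CPM in ScG, a difference of 2.98 ± 0.47 (SE).

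Of the 33 members at interferon-induced genes, 21 rose in ScG against Z, 22 in ZS, 19 in ZcG and 23 in ZScG, and 0 fell. Their median log2 difference between ScG and Z was 1.30. Over all 1090 tested peaks of that list, 163 were higher and 31 lower in ScG, with a median of 0.37. The counts were 190 and 31 in ZS, 106 and 17 in ZcG, and 219 and 47 in ZScG. Some members did not pass the test here. The widest Mx1 member (chr16:97443785-97449053) had 25.2 and 26.9 CPM in Z and 27.1 and 25.5 CPM in ScG. These libraries overlapped, and the log2 difference was -0.05 ± 0.14 (SE), with an adjusted p of 0.87 in edgeR. The 2 CPM values of each rule group were 11.8 and 13.1 in Ctrl, 41.7 and 41.4 in S and 38.5 and 50.8 in cG. The rule itself required S and cG to be high. The broad member in Tmprss2, a gene next to Mx2, had 17.0 and 21.9 CPM in Z and 24 and 24.4 CPM in ScG (adjusted p 0.58 in edgeR).

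**Figure D2:**
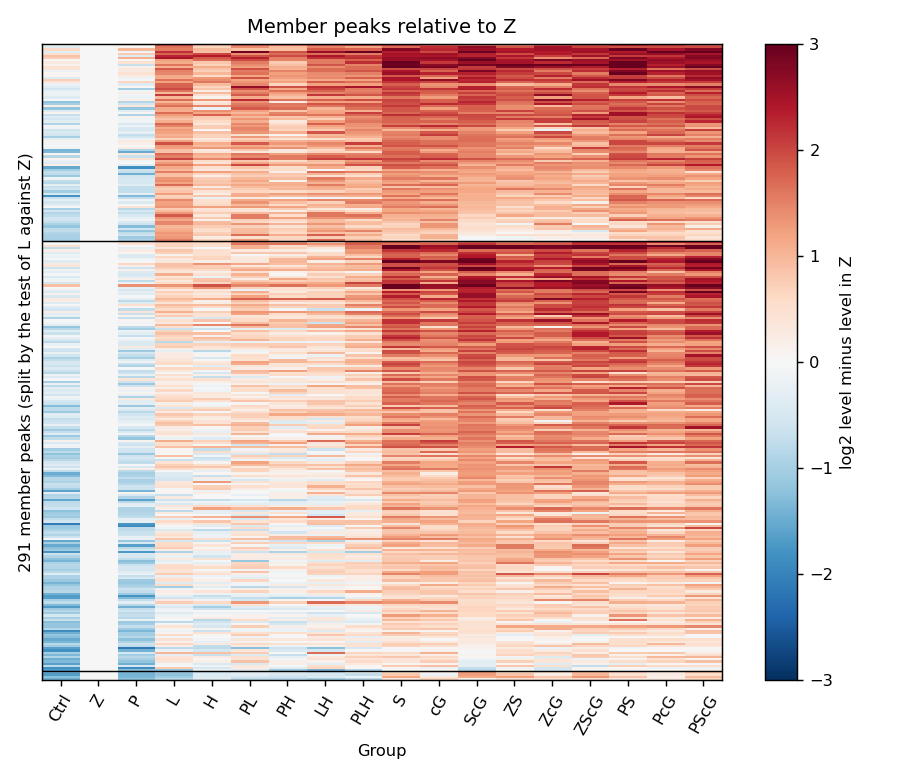
Each row is a member and each column a group, and the colour is the group's mean log2(CPM + 0.5) minus that in Z. Black lines separate the 90 members called higher in L than in Z (top), those not called (middle) and the 4 called lower (bottom), and the 5 groups ScG, ZS, ZcG, ZScG and PScG are red across most rows.

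LPS and the HMW ligand had no part in the choice of members. In L, 90 members were higher than in Z and 4 lower, where 5.66% of all tested peaks were higher and 7.77% lower (13.4% changed). In H, 33 were higher and 2 lower (1.04% and 2.70% of all, 3.74% together). The median log2 difference of the members was 0.75 in L and 0.46 in H. The 4 lower in L lie at Lrpap1, Etv6, Neurog3 and Atp2b1, and the 2 lower in H at Banp and Fndc3a. All of these but Atp2b1 are named after their values were seen. In both L and H, 28 members were called higher, and 196 were called higher in neither. Missing the threshold does not show that a peak stayed as it was: both L libraries lay above both Z libraries at 173 members (59.45%, against 26.73% of all peaks on chromosomes 1 to 19), and both H libraries at 133 (45.7%, against 20.1%). Of the 156 members higher in all 4 groups with virus or cGAMP, 60 were also called higher in L and 92 in neither L nor H. Joint calls in these comparisons were not counted over all tested peaks, so the 28, 196, 60 and 92 do not set the members apart. Without the second Z library the members changed in L fell to 60 from 94. Without a library of H or Z those changed in H were 17 to 20, against 35.

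**Figure D3:**
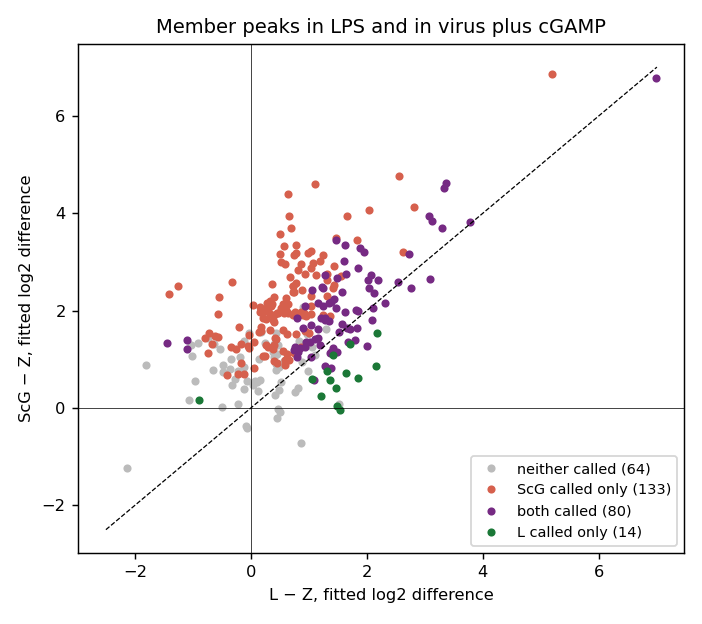
Fitted log2 difference from Z of each member in L (horizontal) and in ScG (vertical), with the dashed line where both are equal. Members called in ScG only (133, orange) lie mostly above the line, those called in both (80, purple) lie near or above it, and 14 were called in L only (green). These joint calls were not counted over all tested peaks.

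Members at interferon-induced genes were among those that rose in L. At the start of Oasl1, L had 65.1 and 56.1 CPM and H had 45.4 and 44.2 CPM, all above the 20.6 and 25.2 CPM of Z. The log2 difference from Z was 1.18 ± 0.12 (SE) in L and 0.81 ± 0.12 (SE) in H. The Mx1 peak reached 90.5 and 84.4 CPM in L, 47.7 and 47.4 CPM in H and 102 and 95.4 CPM in LH. L and LH were thus the highest of all 18 groups at Mx1, with a log2 difference between L and Z of 1.53 ± 0.12 (SE). Of the 33 members at interferon-induced genes, 17 rose in L, 12 in H and 0 fell in either. Over all 1090 tested peaks of that list, 218 were higher and 6 lower in L, and 72 and 1 in H. Of all tested peaks, 5.66% were higher in L and 1.04% in H.

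At other members L showed no such rise over Z. The peak in Efcc1 had 21.2 and 21.4 CPM in L, within the 22.0 and 18.1 CPM of Z, and 35.7 and 31.4 CPM in ScG. In L the Dnm3 peak had 9.34 and 8.57 CPM, a log2 difference from Z of 0.16 ± 0.22 (SE). Near Man1a2, which encodes a mannosidase of glycan trimming, the peak had 24.6 and 24.6 CPM in L, within the 15.7 and 24.8 CPM of Z, and 38.9 and 36.6 CPM in ScG. Ctrl had 10.5 and 11.2 CPM at Efcc1, 5.95 and 4.87 CPM at Dnm3 and 6.46 and 7.76 CPM near Man1a2. The L libraries lay above these, but the rule required Ctrl to be low. The Atp2b1 peak, 28555 bp from the nearest listed start site, fell from 3.82 and 5.16 CPM in Z to 2.12 and 1.73 CPM in L, a log2 difference of -1.45 ± 0.36 (SE). It had 12.4 and 11.5 CPM in ScG. Without the second Z library the call in L was lost (adjusted p 0.095 in edgeR).

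A direct comparison of triplets holds PAM constant: PScG against PLH, a comparison added after the values were seen. Here 101 members were higher in PScG and 2 lower, where 3.53% of all tested peaks were higher and 2.74% lower (6.27% changed). The median log2 difference was 0.69. Members changed numbered 56 without the second PScG library, 50 without the first PLH library and 66 without the second, against 103 with all. The mitochondrial shares of the 2 groups were close, 44.4% to 45.7% in PScG and 46.9% to 48.0% in PLH. The Il27 peak had 12.4 and 11.5 CPM in PScG and 2.41 and 2.93 CPM in PLH, a log2 difference of 2.18 ± 0.34 (SE) with an adjusted p of 5.4e-07 in edgeR. At Dnm3 the values were 26.0 and 25.6 CPM against 10.2 and 10.5 CPM. At the largest Ifit1 member they were 57.6 and 67.4 CPM against 35.6 and 29.1 CPM, so PScG stood above PLH at all 3. At the start of Oasl1 the 62.4 and 64.7 CPM of PScG against the 52.4 and 53.5 CPM of PLH did not pass the test (adjusted p 0.095 in edgeR).

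The question the rule poses, what PAM does to these peaks, was asked again in 4 pairs of groups that played no part in the choice. When PAM was added to virus plus cGAMP, 8 members were higher in PScG than in ScG and 1 lower, where 2.11% of all tested peaks were higher and 2.42% lower (4.53% changed). The median log2 difference was 0.03, the quartiles of the members were -0.21 and 0.35, and the median standard error of a member was 0.33. Both libraries of PScG lay above both of ScG at 70 members (24.05%) and below at 60 (20.62%), against 21.05% and 24.45% of all peaks on chromosomes 1 to 19. At the 218 blunted peaks, 0 were higher and 16 lower, and their median was -0.38. The count of changed members was 2 without the first PScG library, 5 without the second, 5 without the first ScG library and 2 without the second. It was 16, with 13 higher and 3 lower, when only these 2 groups were fitted. Scaled by total counts it was 33, with 33 higher and 0 lower, but that scaling moved the median of all tested peaks to 0.30 and that of the members to 0.32. A difference that misses the threshold does not show that PAM left a peak as it was.

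Adding PAM to L gave 2 members higher and 1 lower (0.765% and 0.362% of all tested peaks, 1.13% together), with a median of 0.13. Adding PAM to H gave 15 higher and 2 lower (5.28% and 2.27% of all, 7.55% together), with a median of 0.12. Adding PAM to LH gave 3 higher and 3 lower (0.343% and 0.203% of all, 0.546% together), with a median of 0.15. Over all tested peaks the medians were -0.003, -0.04 and 0.002 on L, H and LH. Both libraries with PAM lay above both without it at 26.12% of members on L, 30.24% on H and 31.27% on LH. Of all peaks on chromosomes 1 to 19, 17.46%, 24.26% and 22.01% did. They lay below at 15.46%, 12.03% and 13.4% of members, against 24.38%, 26.45% and 20.49% of all peaks. The members changed in PL were 0 without the second L library and 1 without the second PL library. For PH against H they were 9 without the first PH library, 11 without the first H library and 9 without the second. For PLH against LH they were 3 without either PLH library and 2 without either LH library. The blunted peaks had 0 higher in all 3, with 2, 10 and 3 lower and medians of 0.06, -0.30 and -0.10. Of the 291 members, 260 were called in none of the 4 comparisons with PAM added. Few peaks of any kind were called in them: 4.53%, 1.13%, 7.55% and 0.546% of all tested peaks on ScG, L, H and LH. The share of all peaks called in none was not counted, so the 260 do not set the members apart.

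**Figure D4:**
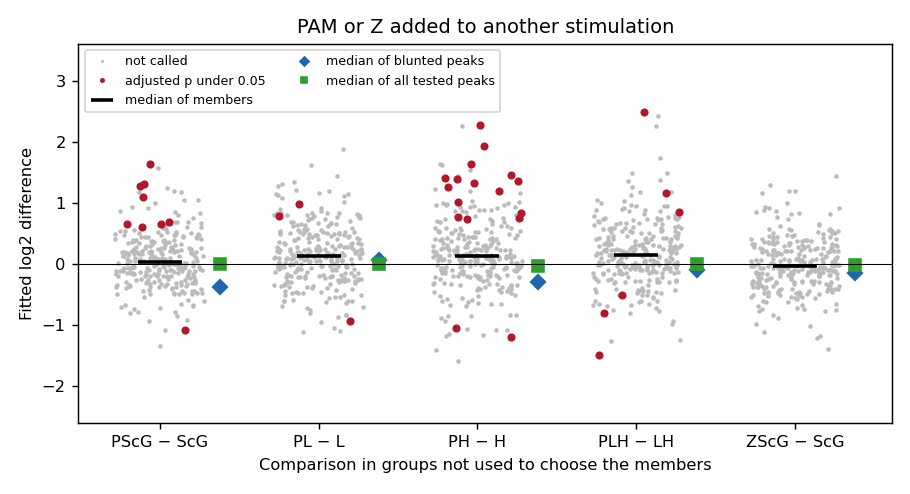
Fitted log2 difference of each member in the 4 comparisons with PAM added and in the comparison with Z added, with called members in red. The black bar is the members' median, which lies between -0.04 and 0.15, and beside it stand the medians of the blunted peaks (blue) and of all tested peaks (green).

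The members that changed with PAM on virus plus cGAMP were few and can be named. Mx1 had 27.1 and 25.5 CPM in ScG and 45.9 and 43.1 CPM in PScG. The groups did not overlap, and the log2 difference was 0.65 ± 0.13 (SE), with an adjusted p of 1.2e-04 in edgeR. The member 40 bp from Cd274 (chr19:29388135-29391638), the gene of the checkpoint ligand PD-L1, had 19.5 and 17.8 CPM in ScG and 32.4 and 30.4 CPM in PScG. Its log2 difference was 0.65 ± 0.15 (SE), with an adjusted p of 0.0026 in edgeR and 0.066 without the second ScG library. A smaller Cd274 member (chr19:29387215-29387966) had 2.86 and 0.918 CPM in ScG and 4.92 and 5.30 CPM in PScG, a difference of 1.30 ± 0.41 (SE). Its call was lost without either PScG library or without the second ScG library.

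Peli1 encodes a ubiquitin ligase of Toll-like receptor signalling. Its member, 57981 bp from the gene, had 4.00 and 3.15 CPM in ScG and 9.83 and 6.78 CPM in PScG, a log2 difference of 1.10 ± 0.32 (SE). A peak in Itpr1, a calcium channel of the endoplasmic reticulum, had 1.37 and 1.97 CPM against 6.44 and 4.74 CPM, a difference of 1.64 ± 0.43 (SE). A peak in Kif13b, a kinesin, had 3.89 and 2.75 CPM against 9.01 and 8.36 CPM, a difference of 1.27 ± 0.34 (SE). In all 3, both PScG libraries stood above both ScG libraries. Leaving out single libraries ended each of these calls, 2 libraries at Itpr1 and 3 at Peli1 and Kif13b, with adjusted p-values up to 0.32 (Peli1), 0.18 (Itpr1) and 0.18 (Kif13b) in edgeR. The 2 other members called higher lie nearest to Kdr and Ppargc1b, named after their values were seen, with log2 differences of 0.61 and 0.69.

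The single member called lower lies in Ebf1, a regulator of B cell development. It had 5.95 and 6.43 CPM in ScG and 3.28 and 2.97 CPM in PScG, a log2 difference of -1.09 ± 0.35 (SE), with an adjusted p of 0.046 in edgeR. That call was lost without any 1 of the 4 libraries and when libraries were scaled by total counts. The lowest fitted difference, -1.35 ± 0.56 (SE) at a member nearest to Socs6, did not pass the test (adjusted p 0.17 in edgeR).

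On H, 2 of the 33 members at interferon-induced genes were called lower with PAM and 0 higher, and on LH 1 was lower and 0 higher. Over all 1090 tested peaks of that list, 25 were lower and 41 higher on H, and 13 and 3 on LH. Of the 3 members at genes of interferon production and signalling, 1 rose on H and 0 fell, and on LH 2 fell and 0 rose. Over all 332 tested peaks of that second list, 13 rose and 4 fell on H, and 5 rose and 4 fell on LH. Of all tested peaks, 2.27% were lower and 5.28% higher on H, and 0.203% and 0.343% on LH. The member that rose on H lies at Tyk2, named after its values were seen. Its log2 difference was 1.39 ± 0.45 (SE), with an adjusted p of 0.037 in edgeR. The Mx1 peak had 102 and 95.4 CPM in LH and 55.3 and 58.9 CPM in PLH, a log2 difference of -0.80 ± 0.11 (SE) with an adjusted p of 2.3e-07 in edgeR. The broad peak near Ifih1 had 63.4 and 68.7 CPM in LH and 45.3 and 48.4 CPM in PLH, a difference of -0.51 ± 0.11 (SE). The narrower Ifih1 member beside it had 7.20 and 8.26 CPM in LH and 1.98 and 3.62 CPM in PLH, a difference of -1.48 ± 0.33 (SE). These 3 are the members called lower in PLH. In PH against H, 2 members were called lower. An Oasl1 member (chr5:114927463-114928775) had 7.30 and 9.24 CPM in H and 3.85 and 4.22 CPM in PH. A peak in Iigp1, an interferon-induced GTPase, had 4.39 and 3.23 CPM in H and 1.14 and 2.22 CPM in PH. Only 1 member was called lower there with DESeq2, its size factors, total counts or the largest peak left out of the tests. It was 2 with no filter, a replicate block, the mitochondrial peak kept or only the groups compared. In PL against L the only member called lower was near Gramd1b, named after its values were seen.

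Some members were called higher when PAM was added on these backgrounds. Their share was 5.15% on H and 0.687% on L, near the 5.28% and 0.765% of all tested peaks. On LH it was 1.03% against 0.343%. How far the calls on L and H rested on single libraries is given above. The Arhgef28 peak had 11.6 and 8.93 CPM in L and 13.4 and 21.4 CPM in PL, and 8.54 and 8.46 CPM in H and 15.1 and 13.8 CPM in PH. The log2 differences were 0.78 ± 0.18 (SE) and 0.73 ± 0.18 (SE). The peak nearest to Gm5434 had 8.29 and 7.57 CPM in H and 15.2 and 12.7 CPM in PH, a difference of 0.78 ± 0.18 (SE). None of these libraries overlapped. At the start of Oasl1, in contrast, no addition of PAM passed the test: the differences were 0.01, -0.24, 0.24 and -0.04 on ScG, L, H and LH.

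Whether PAM's effect differed between backgrounds was tested directly, also after the values were seen. Against the effect on L, the effect on ScG differed at 7 members, 3 with a higher and 4 with a lower value on ScG, where 2.15% of all tested peaks differed. Against H it differed at 5 members, 1 higher and 4 lower (1.03% of all). Against LH it differed at 3, with 2 higher and 1 lower (0.732% of all). The median difference over the members was -0.09, -0.11 and -0.07. Scaled by total counts, which moved the medians of all tested peaks to 0.41, 0.25 and 0.23, the splits were 13 higher and 1 lower against L, 5 and 2 against H, and 7 and 1 against LH. The 3 tests share the PScG and ScG libraries. They also contain the step in mitochondrial share between those 2 groups, and their results cannot be told apart from whatever set it.

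Depleted zymosan in the place of PAM gave 0 changed members. Against ScG, ZScG had 0 higher and 0 lower in edgeR and 0 in DESeq2, where edgeR called 0.324% of all tested peaks higher and 0.448% lower (0.772% together). An unadjusted p under 0.05 in edgeR was found at 29 of 291 members and at 14498 of the 119464 tested peaks, so the 29 do not set the members apart. The median log2 difference was -0.04, the quartiles of the members were -0.29 and 0.26, and the median standard error was 0.35. The Oasl1 start had 50.9 and 48.4 CPM in ZScG and 59.6 and 58.2 CPM in ScG, and the largest Ifit1 member 43.4 and 55.7 CPM against 42.6 and 54.8 CPM. The first pair did not overlap and the second did, and neither passed the test (adjusted p 0.39 and 0.96 in edgeR).

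**Figure D5:**
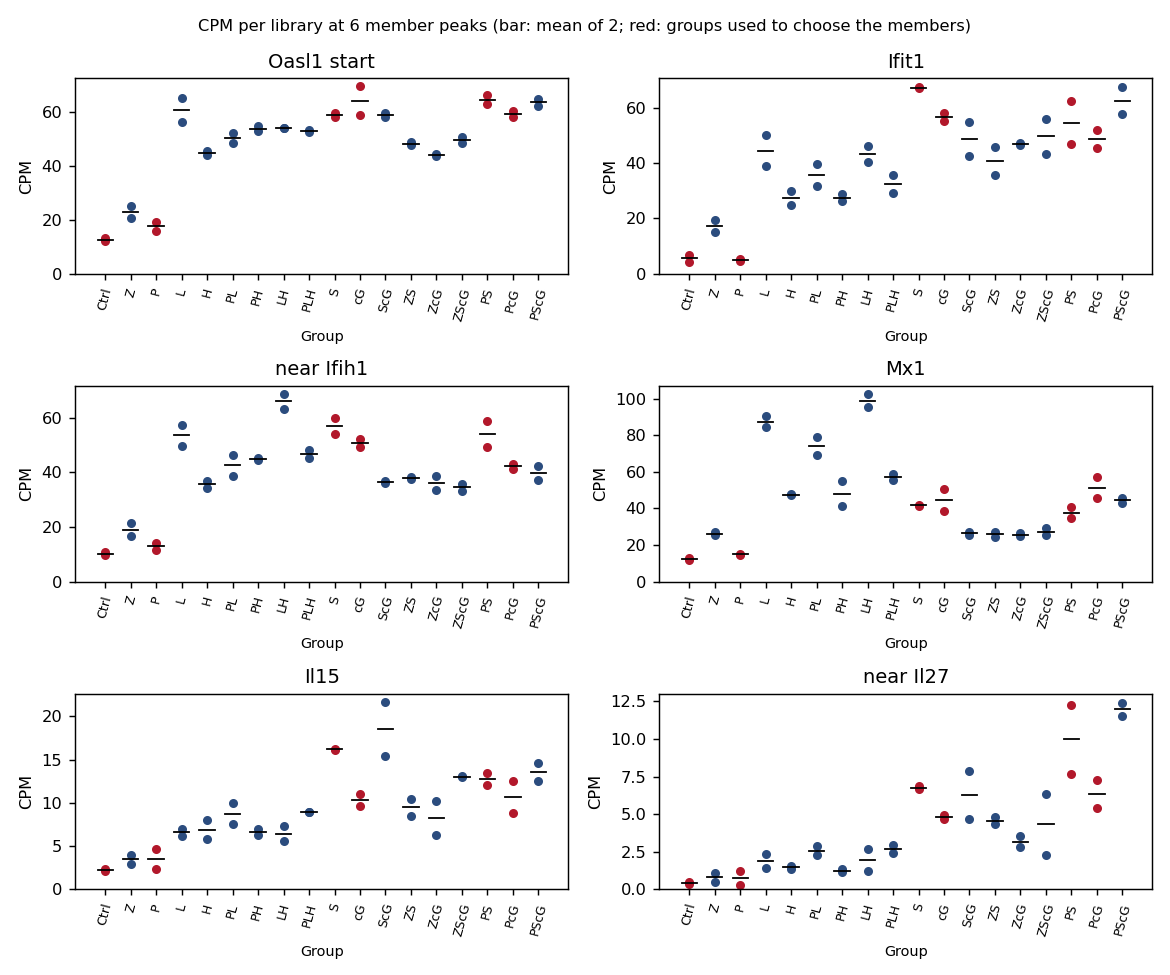
CPM of each library (points) and the mean of 2 (bar) at 6 members, with the groups used to choose the members in red and the others in blue, on axes from 0. The Oasl1, Ifit1 and Ifih1 peaks were high in every group with virus, cGAMP, LPS or the HMW ligand, Mx1 was highest in L, PL and LH, the Il15 peak was highest in ScG and S, and the Il27 peak in PScG and PS.

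The members shared a profile over the 12 groups outside the rule, though not closely in every case. The Pearson correlation of a member with the members' mean profile had a median of 0.83 and ranged from -0.41 to 0.98. Each member is part of that mean, and the 12 points share libraries and depth. The tested peaks outside the set with the highest correlation to the mean lay at Arhgef3 (0.98), Glrp1 (0.98), Dtd1 (0.98), Cited2 (0.98) and Catsperd (0.97). Arhgef3 stood 0.55 above the control in P and so missed the limit narrowly, and Glrp1 and the Dtd1 peak missed the limit on PcG against cG at -0.59 and -0.44. Cited2 and Catsperd rose with PAM by 1.67 and 0.92.

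The thresholds cut through a continuous range. The members nearest to the virus threshold lay in Gphn and Trim30a at 1.505 and 1.508 above the control, and the nearest peaks below it, at Csrnp3 and Stc2, both at 1.498. For cGAMP the members in Ano10 and near Atp2b1 stood at 1.501 and 1.504, and Tsc22d1 and Sirpb1b stood outside at 1.498 and 1.496. For PAM alone, Slc36a3 and Fggy were inside at 0.499 and 0.495, and Ubl3 and Rptor outside at 0.5003 and 0.5004. For PS against S, Smarcal1 and Ppt1 were inside at -0.398 and Phactr4 and Bank1 outside at -0.407 and -0.413. For PcG against cG, the members near Ifi209 and in R3hdm1 were inside at -0.399, with Ndufs3 and Slc8b1 outside at -0.403 and -0.404. Of the members named here, the Gphn peak shows how little some of them differed elsewhere, with 11.2 and 12.3 CPM in Z, 18.1 and 13.9 CPM in ScG and 13.6 and 12.4 CPM in PScG.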

How the data were processed

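ATAC-seq measured open chromatin in 36 libraries, whose titles give 18 groups and the replicate numbers. The table deposited by the authors holds unnormalized read counts of each library in each peak, and a second deposited list gives peak positions. Per the submitters' processing notes, which give no order or role, the tools were Bowtie2 2.2.9, MACS2 1.4, bedtools and featureCounts, and the build was mm10. The adjustment of read ends for the transposase and the handling of duplicates are not given in the sources used here. The labels name no molecular identifiers.

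The members and all gene lists were chosen with earlier results of these data known. The mitochondrial peak was left out of library sizes and tests. The largest remaining peak (13.6% to 28.8% of counts on chromosomes 1 to 19) was left out of CPM only, which then rest on 5973882 to 18387733 counts per library. Counts were filtered with filterByExpr (minimum count 10, 286 peaks dropped), scaled by TMM and fitted by glmQLFit (robust) in edgeR 4.0.16 under R 4.3.3, with 1 coefficient per group, a dispersion trend over abundance and 18 residual degrees of freedom. Benjamini-Hochberg adjustment covered 119464 peaks, and an adjusted p under 0.05 is a call. The procedure was tested on simulated data. Differences among Ctrl, P, S, cG, PS and PcG, which chose the members, were not tested.

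Peaks were assigned to overlapping or else nearest genes of the RefSeq GRCm38.p6 table, and start sites came from its promoter table, which lists none on chromosome 18 and is incomplete. Named are the 12 members with the highest mean CPM in the 24 libraries outside the rule, the 25 highest at list genes, the 4 highest and 4 lowest in PScG minus ScG, the 2 nearest to each threshold on either side, and the 5 outside peaks most like the members' mean profile. Alternatives were DESeq2 1.42.0, its size factors, total counts, no filter, the mitochondrial peak kept, only the groups compared, each library left out, a replicate block and, added after the data were seen, the largest peak left out of the tests. The replicate numbers carry no stated pairing.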

Additional observations from a re-analysis of the deposited data

Results flagged for a closer look

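PAM's effect on virus plus cGAMP (PScG minus ScG) was set against its effect on another background. The test was an interaction term in edgeR's quasi-likelihood model, adjusted over all tested peaks. Of the 291 members it differed at 7 against L, 5 against H and 3 against LH. Of all tested peaks, 2.15%, 1.03% and 0.732% differed, so such differences are not particular to the members. The members named in the report where it differed number 5, and only these are given here. The tests were added after the values were seen, and each value is the log2 difference on ScG minus that on the other background, with its SE. Each difference kept its direction in every alternative run. Each also contains the step in mitochondrial share between PScG (44.4% to 45.7%) and ScG (57.3% to 61.5%). It cannot be told apart from whatever set that step.

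At the Mx1 peak the effect on ScG was higher than on L by 0.86 ± 0.17 (SE, adjusted p 4.9e-04 in edgeR), than on H by 0.67 ± 0.17 (SE, adjusted p 0.023) and than on LH by 1.46 ± 0.17 (SE, adjusted p 9.2e-11). PAM went with more Mx1 accessibility on ScG and less on LH. The differences from L and LH passed without any 1 of the 8 libraries behind them. The difference from H was lost without the first PScG library, without either ScG or H library and without the first PH library (adjusted p 0.073 to 0.27 in edgeR).

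At the larger Cd274 peak the effect on ScG was higher than on L by 0.72 ± 0.21 (SE, adjusted p 0.039 in edgeR) and than on LH by 0.89 ± 0.21 (SE, adjusted p 0.012). The first was lost without any 1 library other than the second of PL, with adjusted p-values up to 0.24 in edgeR. The other was lost without the first library of PScG, PLH or LH and without the second of ScG, with adjusted p-values up to 0.17.

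At 3 members the effect on ScG was lower. The Atp2b1 peak differed from L by -1.82 ± 0.45 (SE, adjusted p 0.0095 in edgeR), a call lost without the first PScG library, the second PL library or the second L library (adjusted p 0.055 to 0.096). The Ebf1 peak differed from L by -1.73 ± 0.48 (SE, adjusted p 0.028 in edgeR), lost without either PScG or ScG library, the second of PL or the first of L (adjusted p up to 0.15) and at -1.33 with total-count scaling (adjusted p 0.069). The peak nearest to Gm5434 differed from H by -1.09 ± 0.24 (SE, adjusted p 0.0043 in edgeR), lost without the first library of PScG or PH (adjusted p 0.075 and 0.057) and at -0.84 with total-count scaling (adjusted p 0.057).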

How the results depend on the processing

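Of 202 results of named peaks, 0 changed direction in 2455 repeats under the alternatives, and 96 lost their call in at least 1. Total-count scaling raised the changed members to 33 in PScG against ScG, 162 in L and 67 in H against Z, and 14 and 8 where the effect of PAM on ScG was set against that on L and LH. That scaling put the median log2 difference of all tested peaks at 0.47 in L and 0.31 in H against Z, 0.24 in ZS, 0.11 in ScG, 0.12 in ZScG and -0.11 in PL against L. With only the groups compared in the fit, PScG against ScG gave 16, and PAM on ScG gave 8 against H and 6 against LH. DESeq2 gave 6 in PL against L, and 11 and 8 for PAM on ScG against L and H. Leaving out 1 library each time gave 2 to 5 changed members in PScG against ScG, 0 to 2 in PL, 9 to 13 in PH, 2 to 3 in PLH, 50 to 70 in PScG against PLH, 60 to 74 in L and 17 to 20 in H. It gave 2 to 5, 1 to 5 and 1 to 3 for PAM on ScG against L, H and LH, 133 to 188 over the 4 comparisons of virus or cGAMP with Z, and 0 in ZScG against ScG. A group with 1 library left was assumed to vary like the others. With replicate number as a block, the counts were 9 in PScG against ScG, 213 in ScG, 188 in ZcG and 33 in H against Z; no label pairs the numbers, and same-numbered libraries did not deviate together (r from -0.040 to 0.030). The set itself moved with its rule: 633 or 139 members with the threshold on virus and cGAMP lowered or raised by 0.25, 161 or 451 at a PAM limit of 0.25 or 0.75, and 143 or 478 at a floor of -0.2 or -0.6. A 2 CPM offset gave 83, of which 51 were members. Leaving out 1 of the 12 libraries of the rule gave 266 to 302, and 164 to 268 of the members stayed. The median SE of a member was 0.33 in PScG against ScG.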
